A study of Rattus norvegicus with 30 samples.

Results

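The effect of raising the dose of beta-naphthoflavone (BNF) from 1 µM to 100 µM was measured in cultured rat hepatocytes after 48 h. BNF is a synthetic flavone that binds the aryl hydrocarbon receptor, or AhR. The comparison set the 5 arrays of cells given 100 µM BNF for 48 h directly against the 5 arrays of cells given 1 µM BNF for 48 h, 10 of the 30 arrays in the study, and covered all 14217 genes with an unambiguous probe set. The cells were primary hepatocytes of male Sprague Dawley rats, bought frozen, thawed, plated under a Matrigel overlay and dosed with BNF in the vehicle, dimethyl sulfoxide (DMSO, 1%). Cells given the vehicle alone for 48 h (5 arrays) are shown beside both doses, and the same dose comparison at 24 h (5 arrays a dose) is used to ask whether the time of exposure mattered. Each array came from its own culture well, numbered here only to name it, and the labels do not tie wells to animals, so every p-value measures the spread between wells. No genotype other than the strain is given, and all groups share the culture, the overlay and the DMSO.

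The AhR is a transcription factor held in the cytoplasm by chaperones until a ligand binds. It then enters the nucleus, pairs with its partner ARNT, and switches on a small battery of genes of which the cytochrome P450 enzymes Cyp1a1, Cyp1a2 and Cyp1b1 are the best known. In liver these enzymes oxidise planar aromatic compounds, and conjugating enzymes, several of them also controlled by the oxidant-sensing factor NRF2, then make the products soluble.

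Values are linear signal intensities per probe set as deposited, and fold changes come from log2 signal in limma. A gene is said to be called, or to have risen or fallen, where its p-value adjusted over all genes by the Benjamini-Hochberg method was 0.05 or less. Replicate arrays were similar: the SD of log2 signal among arrays of a group had a median over genes of 0.192 to 0.206. Arrays of the 2 doses were compared on 5 measures of array quality by exact permutation tests, for which the smallest possible two-sided p is 0.00794. The median signal was 371 ± 27.4 at 100 µM against 400 ± 17.7 at 1 µM (SD, n = 5 each; exact permutation p = 0.111, adjusted p = 0.278), and Gapdh control probe sets at the 3' end exceeded those at the 5' end by 0.11 against 0.14 log2 units (exact permutation p = 0.0556, adjusted p = 0.278). The part of either difference in the results below was not tested. The medians above are over all probe sets, whereas the median centring used below took each array's median over the 14217 genes. Such centring thus need not remove the whole of the first difference. List counts with median centring are given below beside those they differ from.

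At 48 h, 1984 of the 14217 genes differed between the doses (14.0%). Of these, 934 were higher at 100 µM (6.57% of all genes) and 1050 were lower (7.39%). Most differences were small, with a median of 1.27-fold among called genes, and 155 genes differed by at least 2-fold, 30 higher and 125 lower. The split by direction depended on scaling: with each array centred on its own median, 1734 genes were called higher and 685 lower, so the share of called genes that was higher was 71.7% in place of 47.1%. The 10 arrays separated completely by dose for 1553 genes (10.9%), 1309 of which were also called. Bright genes were called more often than dim ones: 1704 of the 7109 genes above the median signal were called (24.0%), against 280 of the genes below it (3.94%), whose fold changes had a median standard error (SE) of 0.337 log2 units against 0.0794. The shares of members called in the gene lists below are read against 14.0% over all genes and, since most named genes are bright, against 24.0%. List counts with median centring are read against its own 1734 rises and 685 falls over all genes, so more rises and fewer falls in a list are not particular to that list.

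**Figure D1:**
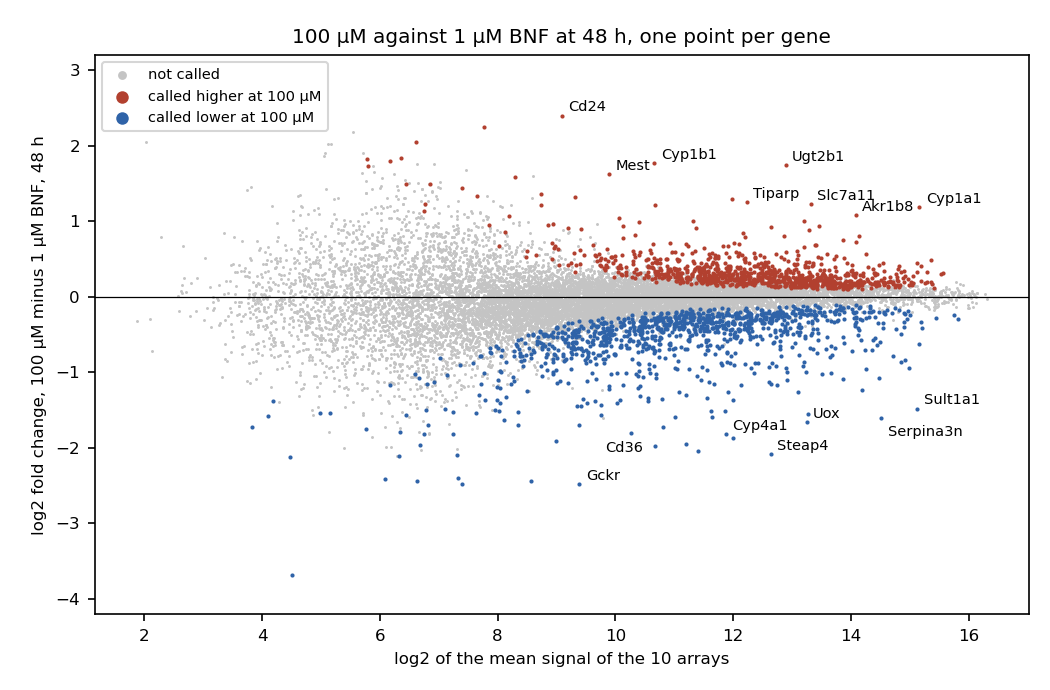
Log2 fold change of 100 µM over 1 µM BNF at 48 h (vertical) against the log2 of the mean signal of the 10 arrays (horizontal), 1 point per gene. Red points are the 934 genes called higher and blue points the 1050 called lower at 100 µM, and some of the largest differences are named.

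Genes with large differences were picked among called genes whose doses did not overlap and whose brighter dose had a mean above the median of all gene means. For genes picked this way, the lack of overlap is part of the rule and not a separate result, also where they return in the lists below. The largest rise was that of Cd24, which encodes a small cell surface glycoprotein. Its signals were 1063, 883, 1017, 840.1 and 773 at 100 µM and 181, 234, 145, 159 and 154 at 1 µM. At 1 µM its mean of 175 lay below the median of 863 over all genes, so Cd24 was picked through the 100 µM wells, and the difference was 5.28-fold (log2 2.40, SE 0.40, adjusted p = 6.45e-05). Cyp1b1 and Ugt2b1, described below, came next by size, followed by Mest, an imprinted gene expressed from the paternal allele, at 3.07-fold, and Map2, a microtubule-associated protein, at 2.50-fold, whose call was lost when its probe sets were averaged (adjusted p = 0.691). Fosl1, a subunit of the AP-1 transcription factor, rose 2.45-fold, and Hsd17b2, which oxidises oestradiol and testosterone, rose 2.07-fold. Csrnp1, Elmod1 and the Krüppel-like factor Klf5 rose 2.00-, 1.99- and 1.91-fold, and the call of Klf5 was lost with its probe sets averaged (adjusted p = 0.111). Like Cd24, the genes Cyp1b1, Mest, Map2, Hsd17b2 and Klf5 passed the rule through the 100 µM wells. Their means at 1 µM were 736, 470, 368, 693 and 777, all below the median of 863.

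The steepest fall picked in the same way was that of Gckr, the regulatory protein that binds glucokinase in the nucleus. Its signals were 905, 1360, 1164, 1028 and 1006 at 1 µM and 134, 419, 57.1, 438 and 196 at 100 µM. As the rule required, every well at 100 µM lay below every well at 1 µM. The fall was 5.58-fold (log2 -2.48, SE 0.32, adjusted p = 1.03e-06). The mean of Gckr at 100 µM, 249, lay below the median over all genes, so Gckr was picked through the 1 µM wells. The same held for other falls, among them Cd36 and Vim. Steap4, a metalloreductase, fell 4.22-fold, from 10374 ± 1745 to 2441 ± 240.4 (SD, n = 5 each). Falls of more than 2-fold were also measured for Cd36, a fatty acid uptake receptor (3.93-fold), Ccn2, a matrix-associated secreted protein (3.85-fold), and Vim, the intermediate filament protein vimentin (3.50-fold). Uox, urate oxidase, fell 3.15-fold, and the peroxisomal glycolate oxidase Hao1 fell 3.00-fold beside Hoga1, an aldolase of the same glyoxylate pathway, at 3.02-fold. Nxpe4 fell 3.66-fold, the tetraspanin Tspan8 3.24-fold, and the growth factor Fgf1 2.95-fold. The 15 falls picked by size kept their call under each alternative in which they were tested, which for Tspan8 does not include the one that left out dim genes.

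The AhR battery, 8 measured target genes, held 5 that rose from 1 to 100 µM and none that fell (62.5%, with a median log2 fold change of 0.49 against -0.02 over all genes). Cyp1a1, the P450 most often used to report AhR activity, gave signals of 14997, 27249.7, 19856, 24113 and 26819 at 1 µM and 38665, 55182, 53916, 52142 and 53729.5 at 100 µM. All 5 wells at the higher dose exceeded all 5 at the lower, with 1 well at 100 µM below the other 4, and Cyp1a1 rose 2.28-fold (log2 1.19, SE 0.20, adjusted p = 7.84e-05). Cyp1b1, a related P450 that also hydroxylates oestradiol, gave 786, 603, 712, 653 and 925 at 1 µM and 3092, 2374, 2141, 2485 and 2441 at 100 µM. It rose 3.42-fold (log2 1.77, SE 0.17, adjusted p = 2.97e-09), again with no overlap. Tiparp, an ADP-ribosyltransferase that feeds back on the receptor, rose 2.38-fold from 2697, 2808, 3043, 2604 and 3048 to 6729, 7017, 6845, 6292 and 6888. The 5 Tiparp signals within each dose lay close together beside the gap between doses (adjusted p = 3.15e-13).

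Cyp1a2, the liver P450 that metabolises caffeine, rose 1.59-fold, from 7284 ± 1004 to 11589.9 ± 1782 (SD, n = 5 each; adjusted p = 8.47e-05). Nqo1, a quinone reductase that is a target of both AhR and NRF2, rose 1.25-fold, from 42895 ± 1183 to 53692 ± 6010.5 (SD, n = 5 each; adjusted p = 0.00112). The remaining 3 members were dim and were not called. Aldh3a1, an aldehyde dehydrogenase, had a log2 difference of 0.18 (95% interval -0.58 to 0.94), Ahrr, the repressor of the receptor, -1.21 (-2.72 to 0.30), and Cyp2s1, another P450, -0.21 (-0.56 to 0.14). The interval of Ahrr is wide, lies mostly below 0 and includes 0, so its direction was not detectable at this signal.

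Each battery member was also set against vehicle at both doses. Against vehicle at 48 h, Cyp1a1 was 2.49-fold higher at 1 µM (adjusted p = 0.000365) and 5.68-fold higher at 100 µM, and Cyp1a2 was 2.17-fold higher at 1 µM (adjusted p = 5.16e-07) and 3.45-fold at 100 µM. Nqo1 likewise was called at 1 µM, at 1.38-fold, and at 100 µM, at 1.71-fold. Cyp1b1 and Tiparp were not called at 1 µM and had log2 differences from vehicle of 0.16 and 0.02 at 1 µM (adjusted p = 0.780 and 0.949) and of 1.93 and 1.28 at 100 µM. Vehicle wells gave 2697, 2502, 2409, 2860.3 and 3622 for Tiparp, spread around those of the 1 µM wells. These contrasts share the vehicle and dose arrays with the main comparison and are set beside it as values.

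Promoter letters were read from RefSeq (build GRCr8, 250 bases before to 50 after the gene start) for 3 battery members that rose and whose window holds GCGTG, the core that the AhR and ARNT bind, on either strand. They are printed on the strand of the gene, with the core in capitals (CACGC where it lies on the other strand), to show where the core sits in genes that rose. The windows are chr6:21094315-21094614 on the + strand for Cyp1b1, chr2:152063519-152063818 on the + strand for Tiparp and chr19:52220218-52220517 on the - strand for Nqo1.
Cyp1b1: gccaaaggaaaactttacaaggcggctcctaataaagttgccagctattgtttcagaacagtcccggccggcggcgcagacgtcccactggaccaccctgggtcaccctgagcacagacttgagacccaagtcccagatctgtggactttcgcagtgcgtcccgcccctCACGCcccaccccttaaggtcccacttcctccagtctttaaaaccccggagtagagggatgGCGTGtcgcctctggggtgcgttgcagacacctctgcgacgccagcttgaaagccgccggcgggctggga
Tiparp: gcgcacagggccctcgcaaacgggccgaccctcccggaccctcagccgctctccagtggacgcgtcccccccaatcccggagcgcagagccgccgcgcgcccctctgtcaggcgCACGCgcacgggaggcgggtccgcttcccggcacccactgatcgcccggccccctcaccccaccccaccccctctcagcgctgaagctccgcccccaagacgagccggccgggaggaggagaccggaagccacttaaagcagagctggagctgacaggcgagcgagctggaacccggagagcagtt
Nqo1: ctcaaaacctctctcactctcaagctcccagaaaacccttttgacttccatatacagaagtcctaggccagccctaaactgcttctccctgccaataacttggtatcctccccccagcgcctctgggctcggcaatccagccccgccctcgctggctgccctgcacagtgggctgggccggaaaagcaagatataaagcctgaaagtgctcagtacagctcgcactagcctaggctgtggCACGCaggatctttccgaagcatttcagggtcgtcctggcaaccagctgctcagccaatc
Cyp1b1 holds the core 81 and 20 bases before its start, Tiparp 136 bases before and Nqo1 10 bases before. The window of Cyp1a2, which rose, and that of Cyp2s1 hold none, and that of Ahrr, which was not called, holds 3. No promoter entry was available for Cyp1a1, which rose, or for Aldh3a1, so their windows were not read. Among the 5 genes with the largest rises, the windows of Cd24 and Map2 each hold 1, and those of Ugt2b1 and Mest 0. The core is common: it was found in 29.7% of all 33469 promoters of the table and in 45.8% of the 11733 promoters of genes tested here. Genes called higher held it in 54.1% of promoters and genes called lower in 43.7%, while among genes that differed by at least 2-fold it was in 9 of 24 promoters of higher genes and 34 of 102 of lower genes. A match describes these letters and not a bound site.

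The receptor and its partners were read from 8 measured genes, 1 of which was called (12.5%, near the 14.0% over all genes). Of the 8, 5 lay below the median signal, where fewer genes were called. Nfe2l2, which encodes NRF2, rose 1.32-fold, from 17185 ± 699 to 22631 ± 565 (SD, n = 5 each; adjusted p = 2.55e-07). Hsp90ab1 and Ptges3, the chaperone and co-chaperone of the unbound receptor, had log2 differences of 0.06 (95% interval -0.08 to 0.20) and 0.11 (0.01 to 0.21), and Ptges3 was called with quantile normalization or median centring (adjusted p = 0.0117 and 0.0190) and without replicate 1 of the 100 µM group (adjusted p = 0.0380). Ahr itself had a log2 difference of -0.31 (95% interval -0.70 to 0.09) and was not called.

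**Figure D2:**
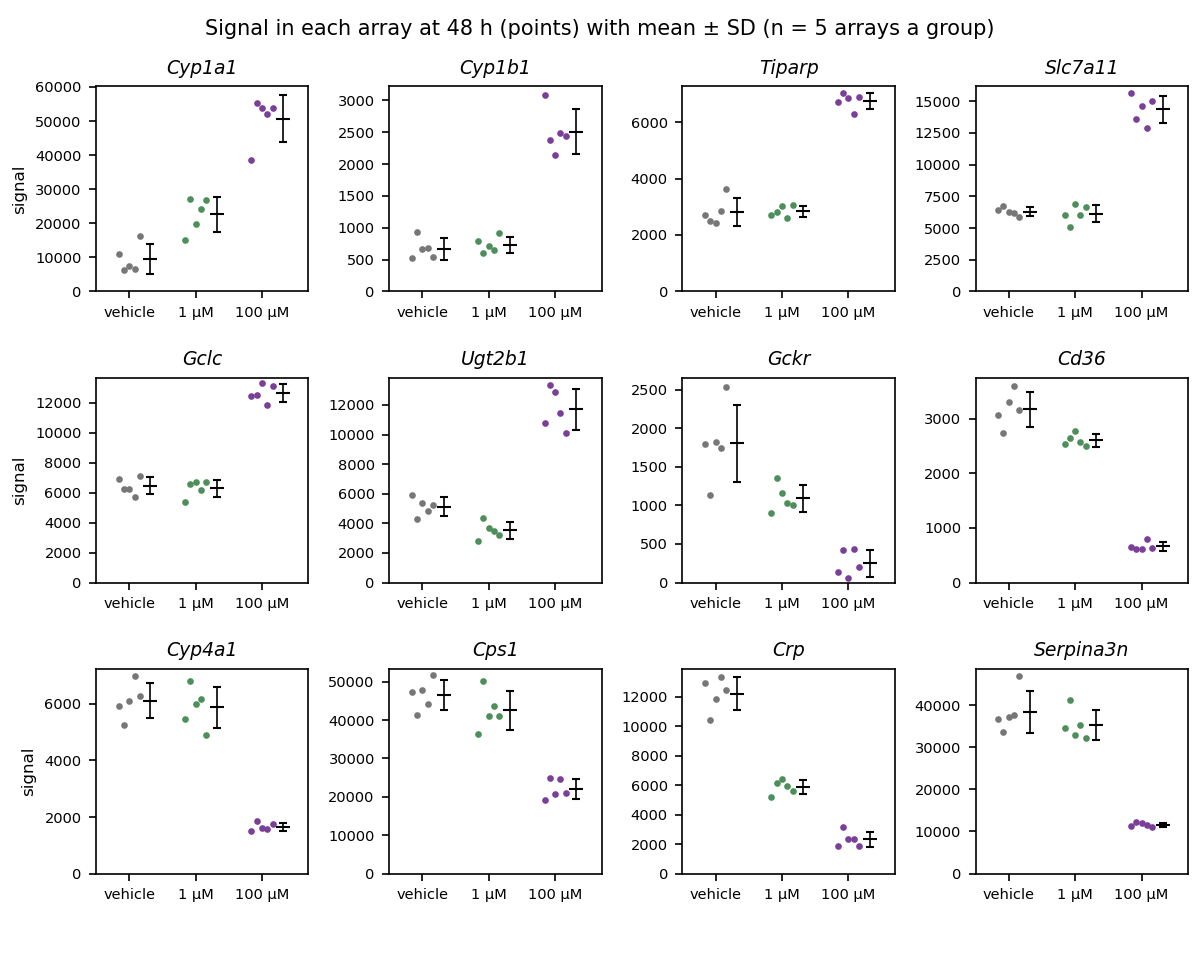
Signal of 12 genes in each array at 48 h on linear axes that start at 0, for vehicle, 1 µM and 100 µM BNF, with mean ± SD (n = 5 arrays a group) drawn beside the points. Cyp1a1 steps up on average at both doses, with the highest vehicle well (16365) above the lowest well at 1 µM (14997). Cyp1b1, Tiparp, Slc7a11 and Gclc overlap vehicle at 1 µM and are higher at 100 µM. Ugt2b1 lies on average below vehicle at 1 µM and above it at 100 µM, and Crp steps down at both doses.

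NRF2 targets, the antioxidant and glutathione genes, made up the list with the highest share of rises: 16 of 22 measured members rose, 1 fell, and the median log2 fold change was 0.34. With median centring 19 rose and none fell. Slc7a11, the cystine importer that feeds glutathione synthesis, gave 5988, 5105, 6861, 6051 and 6649 at 1 µM and 15643, 13624, 14596, 12897 and 14995 at 100 µM. The doses did not overlap, and the rise was 2.35-fold (log2 1.23, SE 0.067, adjusted p = 2.05e-14). Gclc, the catalytic subunit of the enzyme that makes the first step of glutathione synthesis, gave 5374, 6555, 6701, 6146 and 6677 at 1 µM and 12431, 12509.5, 13281, 11837 and 13132 at 100 µM, a 2.01-fold rise (adjusted p = 2.37e-13). Txnrd1, thioredoxin reductase, rose 1.75-fold, Pgd, an NADPH-producing enzyme of the pentose phosphate pathway, 1.45-fold, and Cbr1, a carbonyl reductase, 1.28-fold. None of these 5 differed between 1 µM and vehicle by more than 1.11-fold, and none of those differences was called. Akr1b8, an aldo-keto reductase outside the list, rose 2.11-fold from 11129 ± 760.3 to 23498 ± 1440.1 (SD, n = 5 each) and was already 1.56-fold above vehicle at 1 µM (adjusted p = 4.89e-06).

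Glutathione transferases, the enzymes that use glutathione for conjugation, were counted separately. Of 17 measured, 1 rose and 6 fell, and with median centring 3 rose and 5 fell. Gsta4, the isoform that conjugates lipid aldehydes, rose 1.62-fold (adjusted p = 1.17e-06). Gstm3 fell 2.46-fold, from 3347 ± 1074 to 1336 ± 332 (SD, n = 5 each), Gstm7 fell 1.62-fold, the microsomal Mgst3 1.44-fold, and Gstz1, which also acts in tyrosine breakdown, 1.35-fold. Transferase genes of 1 class have closely similar sequences, and how far their probe sets share signal was not tested.

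Among 19 measured genes of glucuronidation and sulfation, 3 rose and 6 fell (4 with median centring), and the members with the largest differences went opposite ways. Ugt2b1, a glucuronosyltransferase of steroids and drugs, gave 5946, 4281, 5389.8, 4807 and 5209 in vehicle, 2799, 4393, 3717, 3489 and 3229 at 1 µM and 10765, 13330.2, 12903, 11479.5 and 10084 at 100 µM. The order was thus not that of the doses: the 1 µM wells were 1.46-fold below vehicle (adjusted p = 0.0114) and the 100 µM wells 2.29-fold above it (adjusted p = 1.31e-09), which made the dose difference 3.34-fold (adjusted p = 6.54e-13). Ugdh, which makes the sugar donor of glucuronidation, rose 1.26-fold. The sulfotransferases Sult1a1 and Sult1b1 fell 2.79- and 2.11-fold, Sult1a1 from 48774, 63202, 48368, 53365 and 49668 to 14727, 22162, 18798, 20939.6 and 18223, with no overlap. Ugt2b10 fell 1.94-fold.

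Of 12 measured targets of the drug-sensing receptors CAR and PXR, 2 rose and 5 fell, but 2 fell with median centring and 3 with the 2 dose groups fitted alone. Cyp2a1, a testosterone hydroxylase, rose 1.61-fold, from 8259 ± 459 to 13303 ± 605 (SD, n = 5 each), and the 1 µM wells were already 2.39-fold above vehicle (adjusted p = 1.09e-14). Cyp3a18 fell 1.64-fold and Aldh1a1, which makes retinoic acid, 1.50-fold. Por, the reductase that passes electrons to P450 enzymes, fell 1.24-fold, a call lost with median centring (adjusted p = 0.0661). The list of P450 and steroid enzymes that differ between male and female rat liver had 1 rise, Cyp2a1, and 4 falls of 10 measured. Cyp2c22 fell 1.63-fold and Hsd3b5 1.56-fold. Cyp2c11, the main male-specific P450, fell 1.37-fold, a call lost when the 2 dose groups were fitted alone (adjusted p = 0.0879). The receptor genes themselves also fell: Nr1i3, which encodes CAR, 2.12-fold and Nr1i2, which encodes PXR, 1.42-fold.

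Of 26 measured genes of fatty acid oxidation and targets of its regulator PPARA, 17 fell and none rose (median log2 fold change -0.25), and with median centring 10 fell and 1 rose. Cyp4a1, the fatty acid omega-hydroxylase, gave 5475, 6805, 6002, 6183 and 4893 at 1 µM and 1508, 1855, 1597, 1582 and 1735 at 100 µM. Those groups lay far apart, and the fall was 3.53-fold (log2 -1.82, SE 0.096, adjusted p = 1.32e-14). Cyp4a3, its close relative, fell 1.83-fold, Fabp1, the liver fatty acid binding protein, 2.27-fold, and Angptl4, a secreted inhibitor of lipoprotein lipase, 2.01-fold. Pdk4, which restrains glucose oxidation, fell 1.40-fold. The other 12 members called fell by less than Pdk4 did. Cd36, which brings fatty acids into the cell and is not in the list, gave 2527, 2634, 2778, 2563 and 2490.1 at 1 µM and 653, 615, 621, 803 and 628 at 100 µM, with 1 well at 100 µM above the other 4 yet far below all wells at 1 µM.

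In the opposite pathway, fatty acid and triglyceride synthesis, 11 of 27 measured genes were lower at 100 µM, 2 were higher, and the median log2 fold change was -0.30. Thrsp, a regulator of lipid synthesis known as Spot 14, fell 2.14-fold (adjusted p = 4.24e-06). Srebf1, the transcription factor that drives the pathway, fell 1.83-fold, from 4567 ± 170.2 to 2504 ± 280.1 (SD, n = 5 each), while its difference between 1 µM and vehicle was not called (log2 0.12, adjusted p = 0.682). Scd, the stearoyl-CoA desaturase, fell 1.61-fold and Acly, which supplies acetyl-CoA, 1.31-fold, and both were already lower than vehicle at 1 µM (1.58-fold and 1.28-fold, adjusted p = 0.000130 and 0.00103). Pklr, liver pyruvate kinase, fell 1.69-fold, a call lost with its probe sets averaged (adjusted p = 0.661).

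In cholesterol synthesis the differences were small. Of 19 measured genes 5 fell (26.3%, near the 24.0% of bright genes). None fell by more than 1.27-fold, the size for Dhcr7, which makes the last step. With median centring 1 member was called lower, and leaving out replicate 1 or replicate 4 of the 1 µM group left 3. The calls of Sqle, Fdps, Hsd17b7 and Fdft1 were lost with median centring (adjusted p = 0.0656, 0.189, 0.0846 and 0.212).

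Of 25 genes of bile acid synthesis and transport, 10 fell and 3 rose (median log2 fold change -0.35), and with median centring 8 fell and 4 rose. Cyp8b1, which sets the share of cholic acid, fell 2.65-fold, from 1516 ± 415 to 566 ± 115 (SD, n = 5 each). Abcb11, the bile salt export pump, gave 11016, 13161, 13472, 12032 and 11416 at 1 µM and 5580, 6613, 6465, 6571 and 7338 at 100 µM. No well of either dose reached the range of the other, and the fall was 1.88-fold (adjusted p = 1.69e-10). Akr1d1, a steroid reductase of the pathway, fell 1.86-fold and Cyp27a1, which starts the alternative route, 1.64-fold. Amacr, a racemase of bile acid side chain shortening, rose 1.29-fold.

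In glucose and glycogen metabolism, 9 of 23 measured genes fell (8 with median centring) and 1 rose, with a median log2 fold change of -0.30. Gckr, described above, headed them, and Pfkfb1, the liver enzyme that sets the level of fructose 2,6-bisphosphate, fell 3.30-fold, from 2761 ± 451 to 835 ± 124 (SD, n = 5 each; adjusted p = 7.13e-12). Slc37a4, which moves glucose 6-phosphate into the endoplasmic reticulum (ER), fell 2.18-fold, Fbp1, an enzyme of gluconeogenesis, 1.91-fold, and Slc2a2, the liver glucose transporter, 1.31-fold.

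The urea cycle and amino acid catabolism held the largest number of falls of any list: 27 of 42 measured genes were lower at 100 µM (25 with median centring), none was higher, and the median log2 fold change was -0.45. Cps1, the first enzyme of the urea cycle, gave 36405, 50222, 41115, 43705 and 41169 at 1 µM and 19142, 24894, 20805, 24633 and 20946 at 100 µM. The highest well at 100 µM was below the lowest at 1 µM, and the fall was 1.93-fold (log2 -0.94, SE 0.081, adjusted p = 5.19e-10). Another Cps1 probe set had a log2 difference of -1.685. Ftcd, which completes histidine breakdown, fell 4.11-fold, from 4357 ± 1581 to 1078 ± 436 (SD, n = 5 each). Upb1, of pyrimidine and beta-alanine breakdown, fell 2.60-fold, Aass, the first enzyme of lysine breakdown, 2.57-fold, Cdo1, which oxidises cysteine, 1.81-fold, and Tat, tyrosine aminotransferase, 1.61-fold. Between 1 µM and vehicle the same 6 genes had log2 differences of -0.79 to -0.04, none of which was called.

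**Figure D3:**
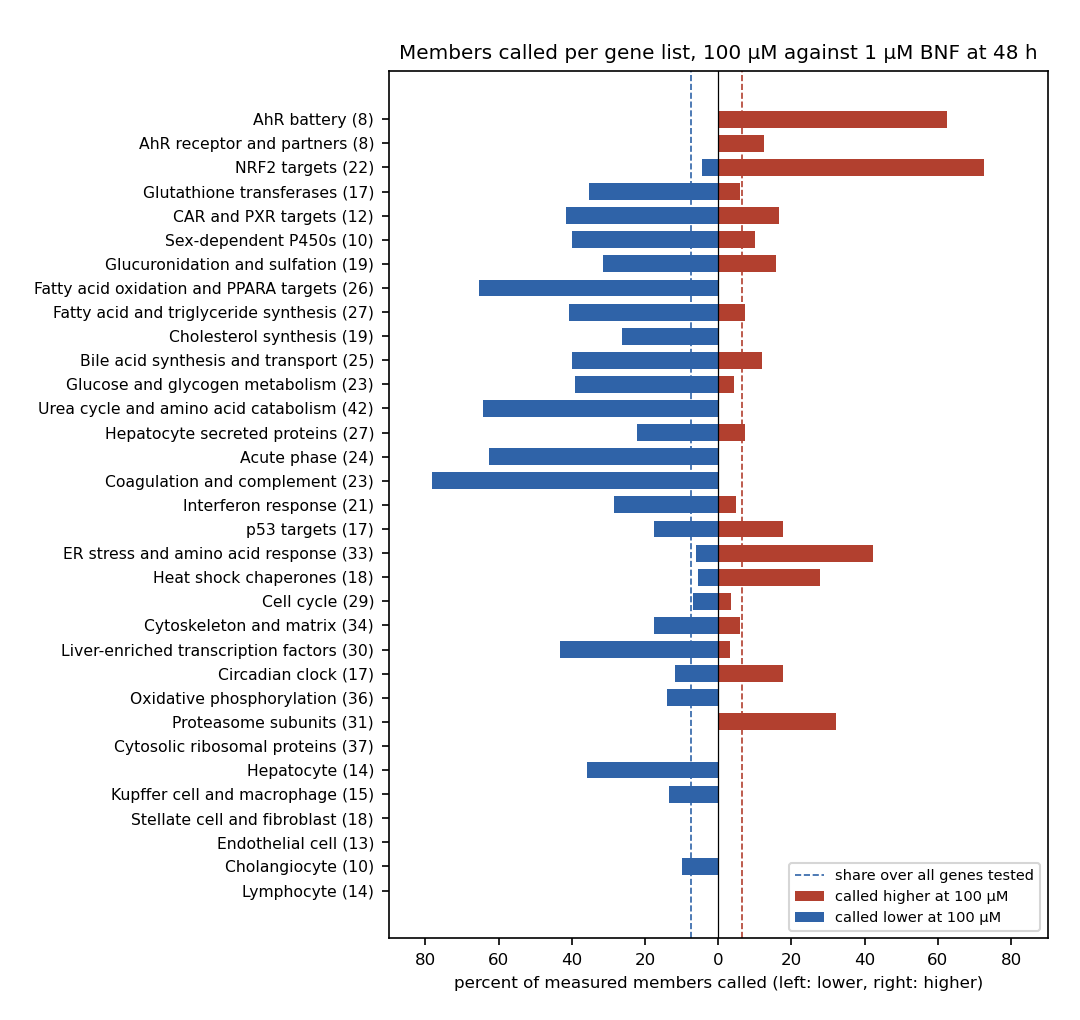
Percent of the measured members of each gene list (number in brackets) called lower (blue, left) or higher (red, right) at 100 µM than at 1 µM BNF after 48 h. Dashed lines mark the shares over all genes, 7.39% lower and 6.57% higher, and the last 6 lists are markers of liver cell types.

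Proteins that hepatocytes secrete were split. Of 27 measured genes in the general list, 6 fell and 2 rose (29.6% called, beside 24.0% of bright genes). With quantile normalization 14 fell, and with median centring 5. Apoc2, an activator of lipoprotein lipase, fell 1.99-fold, Igf1, the growth factor made under growth hormone control, 1.93-fold, Apoa5 1.55-fold and Apob, the scaffold of very low density lipoprotein, 1.49-fold. Sizes differed between probe sets: 2 others of Igf1 had log2 differences of -1.88 and -1.73, beside -0.95 on the brightest. Another of Apob had -0.08, beside -0.57, and was not called. Fetub, fetuin B, rose 1.48-fold, from 15734 ± 1060.3 to 23212 ± 898 (SD, n = 5 each; adjusted p = 4.08e-08).

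Of 24 acute phase genes, 15 fell and none rose (median log2 fold change -0.34), and with median centring 10 fell and 1 rose. Serpina3n, a protease inhibitor of that response, gave 34588, 41189.5, 32937, 35255 and 32269.5 at 1 µM and 11239.8, 12248, 11928, 11564 and 11052 at 100 µM. It fell 3.03-fold with no overlap (adjusted p = 1.32e-14). Crp, C-reactive protein, gave 12961, 10458, 11832, 13342 and 12467 in vehicle, 5199, 6151, 6393, 5972 and 5634 at 1 µM and 1895, 3148, 2324, 2336 and 1907 at 100 µM. These 3 sets of wells did not overlap, and each step was called: 2.08-fold down from vehicle to 1 µM (adjusted p = 4.89e-06) and 2.57-fold down from 1 to 100 µM (adjusted p = 1.55e-09). Cp, ceruloplasmin, fell 2.02-fold, Itih4 1.71-fold, and Cebpd, the transcription factor that rises in inflammation, 2.09-fold.

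Of 23 measured coagulation and complement genes, 18 fell and none rose, with a median log2 fold change of -0.31. With median centring 12 fell and 1 rose, and leaving out 1 array gave 13 to 18 falls. Serpinf2, the plasmin inhibitor, fell 2.55-fold, C8a, a subunit of the membrane attack complex, 1.70-fold, C3, the centre of the complement cascade, 1.56-fold, Proc, protein C, 1.51-fold, and F9, coagulation factor IX, 1.42-fold. Of these 5, only F9 also differed between 1 µM and vehicle, at 1.24-fold lower (adjusted p = 0.00582). In the interferon list, 6 of 21 fell and 1 rose. Isg15, a ubiquitin-like modifier, fell 1.59-fold, the factors Irf7 and Irf9 1.55- and 1.42-fold, and the exonuclease Isg20 1.38-fold, while the antiviral enzyme Rsad2 rose 1.23-fold.

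Of 30 liver-enriched transcription factors 13 fell and 1 rose, 8 fell with probe sets averaged, and with median centring 9 fell and 2 rose. Besides Nr1i3, Nr1i2 and Cebpd, Creb3l3, an ER-bound factor that controls lipid genes, fell 1.37-fold (adjusted p = 1.37e-07). Hnf4a, a central hepatocyte factor, was 1.18-fold lower, a call lost with median centring or with probe sets averaged (adjusted p = 0.103 and 0.203). Cebpa, which maintains the differentiated hepatocyte, was the member that rose, 1.45-fold from 3171 ± 148 to 4594 ± 418 (SD, n = 5 each; adjusted p = 3.85e-07).

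**Figure D4:**
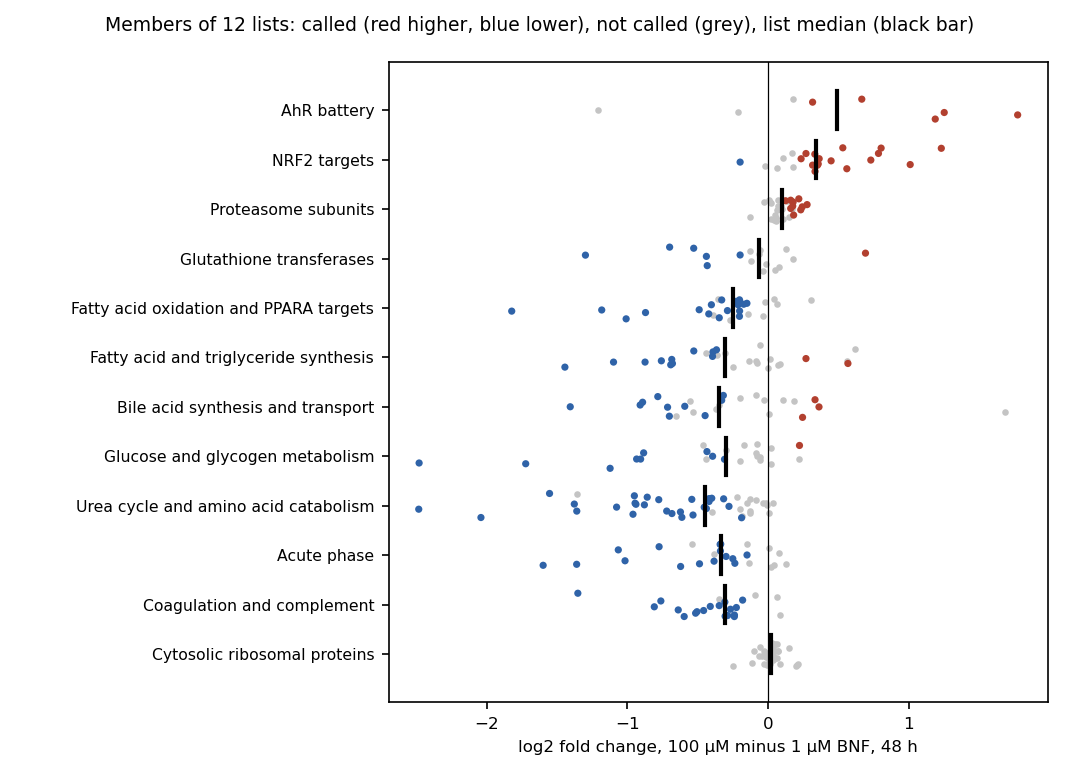
Log2 fold change of 100 µM over 1 µM BNF at 48 h for each measured member of 12 lists (1 point per gene, spread vertically for legibility), with called genes in red (higher) or blue (lower) and others in grey. Black bars mark list medians, which run from -0.45 for the urea cycle and amino acid list to 0.49 for the AhR battery, with ribosomal proteins at 0.02.

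Other stress responses were counted by list. In the list of ER stress and amino acid response, 14 of 33 genes rose and 2 fell, with a median log2 fold change of 0.14, and with median centring 18 rose and 1 fell. Slc7a11 is shared with the NRF2 list. Mthfd2, a mitochondrial folate enzyme, rose 1.51-fold, Pdia4, an ER protein disulfide isomerase, 1.33-fold, and Psat1, of serine synthesis, 1.19-fold. Edem1, which directs misfolded glycoproteins to degradation, fell 1.73-fold, from 33887 ± 2818 to 19605 ± 1236 (SD, n = 5 each), against the direction of most members called. The other fall was that of Ddit3, at 1.17-fold. Members not called included Hspa5, Xbp1, Dnajb9 and Herpud1, with log2 differences of 0.04, 0.06, 0.01 and -0.06.

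Of 31 proteasome subunits, 10 rose (32.3%) and none fell, with a median log2 fold change of 0.10. With median centring 17 rose, while rises over all genes went from 934 to 1734. Psmd1, Psmd7 and Psma5 rose 1.21-, 1.17- and 1.16-fold, and Psmb7 1.13-fold. Psmb5 rose 1.18-fold on its brightest probe set, but with its probe sets averaged its log2 difference was -0.07 (adjusted p = 0.865). None of the 37 cytosolic ribosomal proteins was called by limma, nor did any have an unadjusted p under 0.05 (0), and quantile normalization called 2 higher. The brightest, Rps23 and Rps29, had log2 differences of 0.05 (95% interval -0.09 to 0.19) and 0.01 (-0.13 to 0.15).

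Heat shock chaperones had 5 rises and 1 fall of 18 measured, with 8 rises under median centring and 3 when replicate 5 of the 100 µM group or replicate 1 or 2 of the 1 µM group was left out. Hspa4l and Chordc1 rose 1.49- and 1.23-fold, and Cryab, a small heat shock protein, fell 1.41-fold. The calls of Dnajb4 (1.43-fold higher) and Ahsa1 (1.11-fold higher) were lost under some settings, with adjusted p up to 0.0889 and 0.0907. Among 17 p53 targets 3 rose and 3 fell, with 5 rises and 2 falls under median centring. Gdf15, a stress-induced cytokine, rose 1.79-fold, Plk2 1.32-fold and Aen 1.22-fold, while Sesn1, a sestrin, fell 2.69-fold, from 1266 ± 172 to 469 ± 39.5 (SD, n = 5 each), and Tp53inp1 fell 1.35-fold.

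Other processes were counted in the same way. In the cell cycle list 1 of 29 genes rose, Myc at 1.19-fold, and 2 fell: Tyms, thymidylate synthase, 1.29-fold, and Ccng2 1.33-fold, the latter a call lost under 5 alternatives with adjusted p up to 0.0745. The share called was 10.3%, beside 14.0% over all genes, but 22 of the 29 lay below the median signal, where 3.94% of genes were called. With median centring 2 cell cycle genes rose and 1 fell. Cytoskeleton and matrix genes had 2 rises and 6 falls of 34 (23.5% called, near the 24.0% of bright genes). With median centring there were 5 rises and 4 falls. Besides Ccn2 and Vim, the falls included Tgm2, a transglutaminase, at 1.28-fold, Tagln2 at 1.25-fold and Tpm1, a tropomyosin, at 1.15-fold, whose call was lost with median centring or probe sets averaged (adjusted p = 0.162 and 0.957). Vim gave 1031, 2352, 1734, 1998 and 2568 at 1 µM and 368, 649.9, 525, 594 and 553 at 100 µM, without overlap.

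Circadian clock genes had 3 rises and 2 falls of 17 (29.4% called, beside 24.0% of bright genes), and 1 fall with median centring. The repressors Cry2 and Nr1d2 rose 1.49- and 1.29-fold, Clock rose 1.23-fold (lost with probe sets averaged, adjusted p = 0.441), and Bhlhe40 fell 1.35-fold. Tef, 1.29-fold lower, lost its call under 11 of 19 alternatives, with adjusted p up to 0.837. Of 36 subunits of oxidative phosphorylation 5 fell and none rose (13.9% called, near the 14.0% over all genes and below the 24.0% of bright genes). The differences were small, at most 1.14-fold for Ndufs3, and the count was 0 with median centring (and 1 rise), 9 with quantile normalization and 1 with the 2 dose groups fitted alone, and it was 1 to 3 when replicate 1 or 5 of the 100 µM group or replicate 2, 3 or 5 of the 1 µM group was left out. Atp5po, Sdhd, Uqcrc2 and Sdha, the other 4, each lost the call under median centring (adjusted p = 0.229 to 0.591).

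The labelled cell type was checked against its markers. The 14 hepatocyte markers were among the brightest genes, with a median percentile of 99.5 among all gene means, and their summed signal was 579040 to 662800 at 1 µM and 470430 to 580870 at 100 µM. Of the 14, 5 fell (Cps1, Tat, Fga, Fgb and Hnf4a), against 9 with quantile normalization and 3 with median centring or probe sets averaged. Fga, fibrinogen alpha, fell 1.54-fold, and Fgb, fibrinogen beta, at 1.18-fold lower, lost its call with median centring or probe sets averaged (adjusted p = 0.153 and 0.675). Another Fga probe set had a log2 difference of -1.37, beside -0.62 on the brightest. Alb, albumin, had a log2 difference of 0.05 (95% interval -0.14 to 0.24) and Ttr, transthyretin, -0.06 (-0.22 to 0.10), and neither was called. In bulk RNA of this kind, fewer cells of a type and less RNA per cell cannot be told apart.

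Markers of other liver cells showed few calls, with median percentiles of gene means of 43.5 for Kupffer cells, 27.1 for cholangiocytes, 26.0 for stellate cells, 18.2 for endothelial cells and 15.9 for lymphocytes. Of 15 Kupffer cell and macrophage markers, 9 of which lay below the median signal, 2 were lower (13.3%, near the 14.0% over all genes). These were Lyz2, lysozyme, at 1.26-fold and Cd14 at 1.18-fold. No call remained with median centring (adjusted p = 0.0804 and 0.165) or without replicate 1 of the 1 µM group. Without replicate 4 or 5 of the 100 µM group or replicate 2 of the 1 µM group, 1 call was left. The summed signal of the Kupffer cell and macrophage markers was 18937 to 22675 at 1 µM and 16950 to 18910 at 100 µM. Of 10 cholangiocyte markers 1 fell, Epcam at 1.17-fold (adjusted p = 0.000165, 0.0518 with median centring), and their sum was 13934 to 14172 at 1 µM and 11793 to 12372 at 100 µM. Since 8 of the 10 lay below the median signal, and a linear sum weighs bright markers most, this sum does not speak for all 10. The part of Epcam in it was not tested. None of the 18 stellate cell, 13 endothelial or 14 lymphocyte markers was called by limma (unadjusted p under 0.05 for 2, 2 and 1), and median centring called 1 endothelial marker higher. For example, Timp1 had a log2 difference of 0.06 (95% interval -0.20 to 0.32), Esam 0.10 (-0.33 to 0.54) and Lck -0.15 (-0.54 to 0.23), while Lox and Fcgr2b, at -0.54 (-1.01 to -0.07) and 0.59 (0.13 to 1.05), were called under 1 and 3 alternatives. The summed marker signals overlapped between doses in these 3 lists, at 6928.5 to 7512.5 and 5975.8 to 7450.2 for stellate cells, 2976.4 to 4469.3 and 3503.7 to 5102.3 for endothelial cells, and 2292.3 to 3399.3 and 1863.5 to 3066.7 for lymphocytes, at 1 and 100 µM respectively. The part of the lower Kupffer and cholangiocyte sums in other results was not tested.

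Against vehicle at 48 h, 115 genes were called at 1 µM and 2475 at 100 µM. The largest dose differences were therefore set beside the vehicle level. Fosl1, Csrnp1 and Fgf1 had mean signals at 1 µM of 2359 ± 422, 1695 ± 149 and 1285 ± 231 against 2096 ± 333, 1789.6 ± 330.4 and 1352 ± 381 in vehicle (SD, n = 5 each), and none of the 3 was called at 1 µM. Ccn2 stepped down at both doses, with 7559, 5856, 6712, 6121 and 4982 in vehicle, 3265, 4375, 3918, 3492 and 3579.7 at 1 µM and 764, 875, 1069, 1129 and 1026 at 100 µM. Its first step was 1.67-fold (adjusted p = 9.17e-05) and its second 3.85-fold (adjusted p = 1.32e-14). Pfkfb1, Hoga1, Pdk4, Angptl4 and Slc37a4 were likewise lower than vehicle at 1 µM (1.59-, 1.46-, 1.46-, 1.40- and 1.43-fold, each called) and lower again at 100 µM. Dnajb4, in contrast, was 1.55-fold below vehicle at 1 µM (adjusted p = 0.0353) and not called at 100 µM (log2 -0.11, adjusted p = 0.705).

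The same comparison of doses at 24 h, on 10 other arrays, called 1097 genes (7.72%), 447 higher and 650 lower at 100 µM. Genes called at both times in the same direction numbered 774, which is 39.0% of those called at 48 h and 70.6% of those called at 24 h, and 4 were called in opposite directions. Among the largest differences at 48 h, Cd24, Cyp1b1 and Tiparp rose 4.86-, 6.03- and 2.59-fold at 24 h as well, and Ccn2 and Hao1 fell 2.91- and 2.77-fold. Cyp1a1 had a log2 difference of 0.42 at 24 h (adjusted p = 0.255), and its difference between the times, 0.77 (SE 0.29), was not called (adjusted p = 0.433). Gckr and Gstm3, which were not called at 24 h, also had no called difference between times (adjusted p = 0.100 and 0.261).

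Tested directly, the dose difference changed between 24 and 48 h for 50 genes (0.352%), 32 in the direction of lower and 18 in the direction of higher signal at 48 h. For 42 of the 50 the difference was larger in size at 48 h, and for 17 its sign was opposite at the 2 times. Crp had a log2 dose difference of 0.25 at 24 h and -1.36 at 48 h, a change of -1.61 (SE 0.18, adjusted p = 2.32e-06). Cd36 went from -0.49 to -1.97 and the transferase Ugt2b from -0.09 to -1.26 (adjusted p of the change = 9.80e-06 and 1.12e-07). In the other direction Akr1b8 went from 0.21 to 1.08 and Fabp7, a fatty acid binding protein, from 0.02 to 0.89 (adjusted p of the change = 1.09e-05 and 0.000261).

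Some genes reversed. The tetraspanin Cd9 was 1.49-fold higher at 100 µM after 24 h and 1.33-fold lower after 48 h, both called, although the 48 h call was lost when the 48 h arrays were fitted alone (adjusted p = 0.0502). Por and Rsad2 were called in opposite directions too, Por at 0.40 and then -0.32 and Rsad2 at -0.22 and then 0.30 log2 units. Cited2, a transcriptional coactivator, was 1.67-fold lower at 24 h and not called at 48 h (log2 0.22, adjusted p = 0.310). The dim genes Igsf9 and Osbp2 had the widest swings, from 1.60 to -1.04 and from -2.31 to 0.91, with neither called at 48 h. None of the 8 AhR battery members had a called change between the times.

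**Figure D5:**
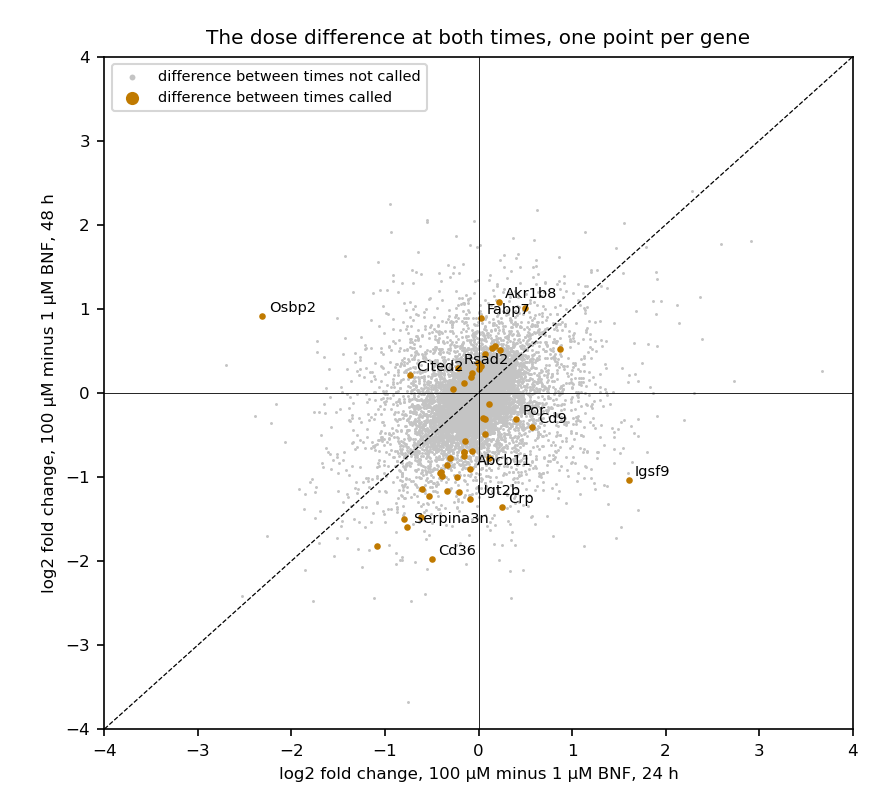
Log2 fold change of 100 µM over 1 µM BNF at 48 h (vertical) against the same at 24 h (horizontal), 1 point per gene, with the dashed line marking equal values. Orange points are the 50 genes whose dose difference changed between the times, most of them further from 0 at 48 h than at 24 h, with Crp, Cd36 and Ugt2b below the line and Akr1b8 and Fabp7 above it.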

How the data were processed

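Gene expression was measured on 30 Affymetrix rat arrays, 5 per group. The deposited values are signal intensity per probe set, made by the authors with MAS5 per the submitters' processing notes, for which no version, background setting or filter is given in the sources used here. Of 31099 probe sets, 57 controls were left out. The platform annotation gave 20826 a single gene symbol, 436 several and 9780 none. The gene numbers of 20758 with a single symbol were found in RefSeq's rat gene table (GRCr8), used for names. Where several probe sets named 1 gene (4525 genes), the one with the highest mean log2 intensity over all arrays was kept, which left 14217 genes. Those without a single symbol were not used, and 0 columns belonged to no sample. No 2 arrays were identical (0).

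The deposited arrays already shared a common level: the trimmed mean, taken without extreme signals, was 1500.5 to 1500.6 in each array. Differences in median signal between arrays are those left at that level. Intensities were taken to log2 without a constant or further normalization. Group means were fitted jointly over the 30 arrays, leaving 24 residual degrees of freedom, in R 4.3.3 with limma 3.58.1 (lmFit, eBayes with a mean-variance trend), and p-values were adjusted over all genes by the Benjamini-Hochberg method. The code was tested on simulated data. SE is that of the log2 fold change, folds are 2 to its power, and means ± SD are of linear signal. Array measures were compared by two-sided exact permutation tests.

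Named genes were the 15 highest and 15 lowest fold changes among called genes without overlap between groups and with the higher group's mean above the median of all gene means, all AhR battery members, and up to 5 called members of each other list by adjusted p. From lists with under 3 called members, up to 2 bright members not called were added, and, for the difference between times, the 5 highest and 5 lowest called. Other genes named are Ahr, Alb, Ttr, Ddit3, Hspa5, Xbp1, Dnajb9, Herpud1 and those in the other observations, chosen after their values were seen. The members, lists and tests were chosen with earlier results of these data known. Alternatives were quantile normalization, median centring, log2(signal + 50), the 2 dose groups alone, the 48 h arrays alone, leaving out dim genes, averaging probe sets, no mean-variance trend, leaving out each array, and, added after seeing the data, a block on serial numbers in the titles.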

Additional observations from a re-analysis of the deposited data

Results flagged for a closer look

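Among the 332 sets of 5 arrays examined (each named gene at each dose at 48 h), 23 held 1 array whose gap to the others was wide by Dixon's criterion (6.93%, where chance gives about 5%). Replicate 1 of the 100 µM group was that array for 9 genes, low in all of them, and replicate 2 of the 1 µM group for 4, high in all of them. In the 100 µM group, replicate 1 gave 38665 against 52142 to 55182 in the other 4 for Cyp1a1, 41031 against 45913 to 47211 for Ptges3, 23547 against 31435 to 33159.7 for Hsp90ab1, 775 against 1051 to 1174 for Ugt2b10 and 29761 against 33365 to 34441 for Ugdh. The same array gave 11684 against 12682 to 13065 for Cyp27a1, 9088 against 10444 to 10835 for Tat, 63351 against 73729.5 to 77880.3 for Rps23 and 58442 against 71389 to 76651 for Rps29. Replicate 2 was high for Cyp2a1 (14362 against 12902 to 13177) and Cyp4a3 (6246 against 3929 to 4447), replicate 4 for Cd36 (803 against 615 to 653) and Cryab (2789 against 1834 to 2006), and replicate 5 was low for Cyp2c11 (956 against 1152 to 1236). In the 1 µM group, replicate 2 was high for Gstz1 (8431 against 7371 to 7565), Sult1b1 (34224 against 29699 to 30927), Cyp27a1 (25222 against 19344 to 20359.8) and Fbp1 (9556 against 7725 to 8149). Replicate 3 was low for Cyp2c11 (951 against 1679.5 to 1859), Ndufs3 (7857 against 8978 to 9276) and Lck (544 against 705 to 768), and replicate 1 was low for Sesn1 (965 against 1309 to 1395) and high for Esam (1458 against 972 to 1086). Without replicate 1 of the 100 µM group 1840 genes were called, and without replicate 2 of the 1 µM group 1611, in place of 1984.

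For 23 named genes the dose difference itself differed between 24 and 48 h in limma's test of the interaction. Values are the log2 dose difference at 48 h minus that at 24 h. The change was downward for Igsf9 (-2.65), Crp (-1.61), Cd36 (-1.48), Ugt2b (-1.17), Cd9 (-0.98), Fabp1 (-0.98), Sult1a1 (-0.86), Serpina3n (-0.84), Abcb11 (-0.82) and Cyp4a1 (-0.74). Smaller downward changes were those of Por (-0.72), Scd (-0.62), Apoc2 (-0.60), Cps1 (-0.55) and Itih4 (-0.47). It was upward for Osbp2 (3.22), Cited2 (0.95), Fabp7 (0.86), Akr1b8 (0.86), Rsad2 (0.52), Gclc (0.51), Cebpa (0.39) and Fetub (0.39).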

How the results depend on the processing

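Counts of genes and list members called between the doses at 48 h were recomputed under 19 alternatives, all chosen with earlier results of these data known. How the counts at 24 h and for the difference between times depend on the processing is not given here. The number of genes called between the doses at 48 h was 1611 to 1919 when 1 array was left out and 1630 to 2419 under the other alternatives, against 1984. Median centring gave 1734 higher and 685 lower genes. The number that differed by at least 2-fold, 155, fell to 103 with log2(signal + 50) and to 75 without dim genes, which leaves 7109 genes tested. Psmb5 reversed with probe sets averaged, to a log2 difference of -0.0699. Of the 166 named genes, 146 were called. Of these, 119 kept their call under every alternative in which they were tested, 26 lost it under at least 1, and 1 reversed. Of the 20 not called, 3 gained a call under at least 1. Other probe sets of named genes numbered 69, of which 33 gave another call and 11 another sign, those of Cebpd, Clock, Map2, Osbp2, Pklr, Psmb5, Tef and, with 4 of them, Tpm1. Sizes could also differ between probe sets of the same gene, and folds given are those of the brightest. List counts of 3 or fewer moved by up to 3 genes under some settings. A replicate block on sets of 6 consecutive serial numbers in the titles (1 array of each group a set), added after seeing the data, gave 2036 called genes. The titles do not say that a set shares anything, and deviations from the group means of same-set arrays of the 2 doses correlated at -0.000202 to 0.111 over genes (over 0.1 in 1 of 5 sets), so the sets were not taken as pairs. In 1 of the 5 sets the 100 µM array correlated best with the 1 µM array of its own set. Dim genes limit the depth of the comparison: below the median signal 3.94% of genes were called, against 24.0% above it.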

Other observations

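The genes below were chosen after their values were seen, from called genes outside the rule for named genes, and they describe groups that the lists do not hold or hold in part. Some enzymes of methyl group and glycine metabolism were among them at 48 h, picked from the genes lower at 100 µM than at 1 µM BNF. Bhmt and Bhmt2, which pass a methyl group to homocysteine, fell 2.93- and 2.12-fold, Bhmt from 14699.5 ± 3789 to 4962 ± 991 (SD, n = 5 each). Gamt, of creatine synthesis, fell 2.11-fold and Gldc, of glycine cleavage, 2.03-fold. Of the retinol dehydrogenases, Rdh7 and Rdh16 fell 2.25- and 1.90-fold. Mttp, which loads lipid onto apolipoprotein B, fell 1.83-fold, Cldn1, a tight junction protein, 2.39-fold, and Pex11a, of peroxisome division, 1.89-fold.

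Several early response or stress genes were picked from those that rose, and members of such groups that did not rise are not listed here. Egr1, an immediate early transcription factor, rose 1.90-fold, Ier3 1.76-fold, from 5439 ± 339 to 9533 ± 184 (SD, n = 5 each), and Zfand2a, an arsenite- and heat-inducible protein, 1.91-fold, from 7724 ± 718 to 14724 ± 700.2 (SD, n = 5 each). Gpx2, a glutathione peroxidase, rose 1.48-fold, Osgin1, an oxidative stress gene of the NRF2 list, 1.66-fold, and Mafk, a small partner of NRF2, 1.48-fold. Tubb3, a beta-tubulin, rose 1.89-fold. All genes in this and the preceding paragraph were called in limma.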
